A study of Homo sapiens with 12 samples.

Results

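The replication-dependent histone genes of the human genome lie in 4 sets of clustered or single loci, named HIST1 to HIST4 in the symbols used here. All 73 symbols with such a name were taken, of 23368 symbols in the count tables: 6 for the linker histone H1, 18 for H2A, 20 for H2B, 14 for H3 and 15 for H4. Of these, 25 reached 0.5 CPM (counts scaled to the size of the library) in at least 3 of 12 libraries and are described individually. They were measured in SUDHL6, an established diffuse large B-cell lymphoma line of germinal centre type. There were 4 groups of 3 libraries: cells kept for 24 h in vehicle (0.01% DMSO), cells kept for 24 h in 200 nM GSK591, and the same treatments for 96 h. GSK591 is a small-molecule inhibitor of PRMT5, an arginine methyltransferase whose substrates include histones H3 and H4. The RNA was selected on oligo-dT beads, and the labels do not state whether replicates are separate cultures. The p-values therefore measure only the spread between these libraries, and that spread may be technical.

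Replication-dependent histones supply the bulk of new chromatin in S phase. Their main mRNAs end in a conserved stem-loop in place of a poly(A) tail. The stem-loop is bound by SLBP, the 3′ end is cut with the help of the U7 small nuclear ribonucleoprotein, transcription is driven by NPAT downstream of cyclin E and CDK2, and the mRNAs are degraded when DNA synthesis stops. Some of these genes also make transcripts with a poly(A) tail, which are known from differentiated and non-dividing cells. Oligo-dT selection keeps mainly that polyadenylated part, so the values below are not a measure of total histone mRNA. In bulk RNA, fewer cells that make a transcript and less of it per cell cannot be told apart.

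Total counts were 48.5 to 64.4 M (M, mega) in 11 libraries and 547.9 M in vehicle replicate 1 at 96 h. The 73 symbols together took 0.00802% to 0.00832% of the counts at 24 h, 0.00843% to 0.0106% in vehicle at 96 h and 0.0119% to 0.0153% in GSK591 at 96 h. After scaling, 1 count was worth 0.0147 to 0.0206 CPM in 11 libraries and 0.00179 CPM in the deepest. All 9 B-cell markers examined were expressed, with a summed level of 7813 to 9069 CPM. The 10 markers of T cells, myeloid cells, fibroblasts, epithelium, endothelium and plasma cells summed to 0.715 to 2.82 CPM, with CD3D at 0 in all 12 libraries. In GSK591 at 96 h that sum was 1.53 to 2.82 CPM, against 0.807 to 1.40 CPM in vehicle at 96 h, and its part in the histone results was not tested.

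The described symbols were spread unevenly over the histone types. They were 11 of the 20 H2B symbols, 7 of the 18 for H2A, 4 of the 15 for H4, 2 of the 14 for H3 and 1 of the 6 for H1. By cluster they were 19 of 56 in HIST1, 4 of 13 in HIST2, 1 of 3 in HIST3 and the only HIST4 symbol. The level was reached in all 12 libraries by 15 of the 25 symbols, and 7 passed only with the help of the 96 h libraries. With the GSK591 libraries of 96 h set aside, 22 of the 25 still passed. Just inside the threshold was HIST1H2AE, whose 3rd-highest library stood at 0.501 CPM, and just outside it HIST1H4K at 0.466 CPM.

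Of the 48 symbols below the threshold, 40 had a count in at least 1 library and 8 were listed at 0 in all 12. These 8 were HIST1H2AA, HIST1H2BA, HIST2H2AA3, HIST2H2AA4, HIST2H3A, HIST2H3C, HIST2H4A and HIST2H4B. The last 6 are 3 duplicated pairs of the HIST2 cluster, and in the GENCODE release 29 models at least 97.1% of the 50-base stretches of each lay also in another gene. Of H3F3A, which encodes the widely used variant histone H3.3, every library was also listed at 0, so a value of 0 for such copies is not evidence that the gene was silent. How the authors counted reads that match several genes is not known from the sources used here.

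The described symbols had longer gene models than the others. The median of the longest transcript was 1237 bases for the 25 and 411 bases for the 48, and models over 1000 bases were found for 14 of 25 against 8 of 48. More than 1 transcript was annotated for 10 of the 25 and 5 of the 48. Sequence shared with other genes makes some values uncertain. All 50-base stretches of the HIST1H2AK model lay also in HIST1H2BN, and all those of HIST1H3D in the model AL031777.3. For HIST1H2BK, 74.1% of the stretches of its 381-base model lay in other genes, most of them in H2BFS. For HIST1H2AI the share was 62.3%, nearly all with HIST1H2AJ, while it was 5.36% for HIST1H2BD, 0.421% for HIST1H2AC and 0% for HIST1H3H and HIST1H1C. It was 39.8% for HIST2H2BC, 30.5% for HIST1H2BE and for HIST2H2AC, and 26.9% for HIST2H2BF, so their values are uncertain too.

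The promoters of the symbols that the results turn on are shown to set their elements side by side. A RefSeq promoter (GRCh38.p14) was matched for 60 of the 73 symbols and 20 of the 25 described. The 250 bases before the annotated start are given 5′ to 3′ on the gene's strand. In capitals, in either orientation, are TATAAA (a form of the TATA box), CCAAT (bound by NF-Y) and the octamer ATTTGCAT. The octamer is bound by the POU factors OCT1 and OCT2. Overlapping matches run together. The first 4 are the symbols whose response to GSK591 differed between the times. HIST2H2BE shares its window with the divergent HIST2H2AC, whose start lies 236 bases away, and HIST1H2BN and HIST1H1C are shown because neither was called at 96 h.
HIST1H2BK (chr6:27146859-27147108, minus strand): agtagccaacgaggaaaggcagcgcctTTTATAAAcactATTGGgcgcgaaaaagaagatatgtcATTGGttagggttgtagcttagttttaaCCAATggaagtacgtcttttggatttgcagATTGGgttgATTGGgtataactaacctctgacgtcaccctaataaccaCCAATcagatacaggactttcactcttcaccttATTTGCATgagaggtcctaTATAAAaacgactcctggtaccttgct
HIST1H2BD (chr6:26157871-26158120, plus strand): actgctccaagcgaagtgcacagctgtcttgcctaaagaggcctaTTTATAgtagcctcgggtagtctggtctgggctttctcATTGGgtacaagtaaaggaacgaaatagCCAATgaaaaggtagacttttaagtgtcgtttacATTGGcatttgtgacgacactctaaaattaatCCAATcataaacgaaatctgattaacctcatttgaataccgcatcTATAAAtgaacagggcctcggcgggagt
HIST1H2AC (chr6:26123922-26124171, plus strand): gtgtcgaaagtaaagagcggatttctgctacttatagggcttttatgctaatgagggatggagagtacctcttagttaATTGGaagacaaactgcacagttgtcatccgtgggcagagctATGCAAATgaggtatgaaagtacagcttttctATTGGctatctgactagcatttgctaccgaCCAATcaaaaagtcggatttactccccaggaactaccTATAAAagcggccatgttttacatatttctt
HIST1H3H (chr6:27809801-27810050, plus strand): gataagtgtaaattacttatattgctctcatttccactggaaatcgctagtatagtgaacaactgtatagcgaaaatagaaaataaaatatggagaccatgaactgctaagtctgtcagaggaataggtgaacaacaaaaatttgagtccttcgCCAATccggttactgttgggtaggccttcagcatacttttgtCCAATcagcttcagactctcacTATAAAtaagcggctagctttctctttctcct
HIST2H2BE (chr1:149886683-149886932, minus strand): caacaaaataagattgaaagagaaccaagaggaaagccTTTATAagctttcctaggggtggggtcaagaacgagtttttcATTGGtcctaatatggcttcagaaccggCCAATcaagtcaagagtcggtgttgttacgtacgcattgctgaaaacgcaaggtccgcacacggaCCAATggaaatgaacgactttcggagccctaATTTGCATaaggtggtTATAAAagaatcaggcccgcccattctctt
HIST1H2BN (chr6:27838319-27838568, plus strand): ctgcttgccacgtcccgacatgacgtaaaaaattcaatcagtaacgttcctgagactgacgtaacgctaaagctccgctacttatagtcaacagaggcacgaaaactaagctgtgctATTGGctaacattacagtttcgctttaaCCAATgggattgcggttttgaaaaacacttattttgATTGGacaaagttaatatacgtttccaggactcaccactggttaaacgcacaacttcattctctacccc
HIST1H1C (chr6:26056471-26056720, minus strand): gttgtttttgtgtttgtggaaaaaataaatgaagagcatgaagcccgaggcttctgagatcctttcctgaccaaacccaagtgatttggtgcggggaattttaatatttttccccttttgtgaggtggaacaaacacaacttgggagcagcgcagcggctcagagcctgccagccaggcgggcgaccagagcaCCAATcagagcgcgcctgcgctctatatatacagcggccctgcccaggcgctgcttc

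The octamer was present in 21 of 60 histone promoters (35%), compared with 1.66% of the 27305 RefSeq promoters over the same length. By type it was found in 11 of 16 H2A and 9 of 13 H2B promoters, in 1 of 12 for H3 and in 0 of 6 for H1 and 0 of 13 for H4. CCAAT stood in 83.3% of the histone promoters and 33% of all promoters, and TATAAA in 66.7% and 11.1%. The E2F-like letters TTTCGCGC were in 18.3% of the histone promoters and 0.469% of all, and TTTGGCGC in 0 of 60 and 0.553%. Of the 4 promoters shown first, HIST1H2BK and HIST1H2AC hold the octamer and HIST1H2BD and HIST1H3H do not, while all 4 hold TATAAA and CCAAT. HIST1H2BN and HIST1H1C hold CCAAT but neither TATAAA nor the octamer in this window. Other forms of the TATA box were not searched, and the HIST1H1C window holds the letters tatatata. A match describes letters in a window and does not show that a factor bound there.

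The H2B values come first, since the 11 described H2B symbols held 51.3 to 52.6 of the 79.0 to 79.5 CPM that the 25 summed to in vehicle at 24 h. Each set of 3 values below gives replicates 1, 2 and 3 in that order, in CPM after TMM scaling, which is not corrected for gene length. Where no treatment is named, vehicle comes first and GSK591 second. HIST1H2BK, a core histone H2B gene of the HIST1 cluster, stood at 36.6, 35.7 and 37 CPM in vehicle and 39.8, 39.1 and 40.5 CPM in GSK591 at 24 h, and at 34.5, 27.7 and 35.4 CPM in vehicle and 62.7, 44 and 61.8 CPM in GSK591 at 96 h. The treated libraries lay above vehicle at both times, by a narrow margin at 24 h and a wide one at 96 h, and replicate 2 was the lowest of its group in every group. HIST1H2BK alone held 45.0% to 46.8% of the summed CPM of the 25 symbols in vehicle at 24 h, 47.8% to 48.9% in GSK591 at 24 h, 34.2% to 36.5% in vehicle at 96 h and 40.7% to 44.6% in GSK591 at 96 h.

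HIST1H2BD, another H2B gene, stood at 5.11, 4.34 and 4.72 CPM in vehicle and 6.28, 5.55 and 5.6 CPM in GSK591 at 24 h, and at 6.98, 5.83 and 7.22 CPM and 13, 9.8 and 13.1 CPM at 96 h. Here too no treated library fell into the range of its vehicle group. HIST1H2AC, a core histone H2A gene and the H2A symbol with the highest CPM, stood at 5.75, 5.98 and 5.49 CPM and 5.85, 4.79 and 4.98 CPM at 24 h, and at 9.59, 8.3 and 9.53 CPM and 12.9, 10.7 and 11.4 CPM at 96 h. Its groups overlapped at 24 h and were apart at 96 h. HIST1H3H, a core histone H3 gene, stood at 2.06, 2.14 and 2.32 CPM and 2.51, 2.25 and 2.5 CPM at 24 h, and at 3.5, 3.08 and 3.56 CPM and 6.1, 5.15 and 6.29 CPM at 96 h. All 3 treated libraries of 96 h were higher than any other library for this symbol.

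**Figure D1:**
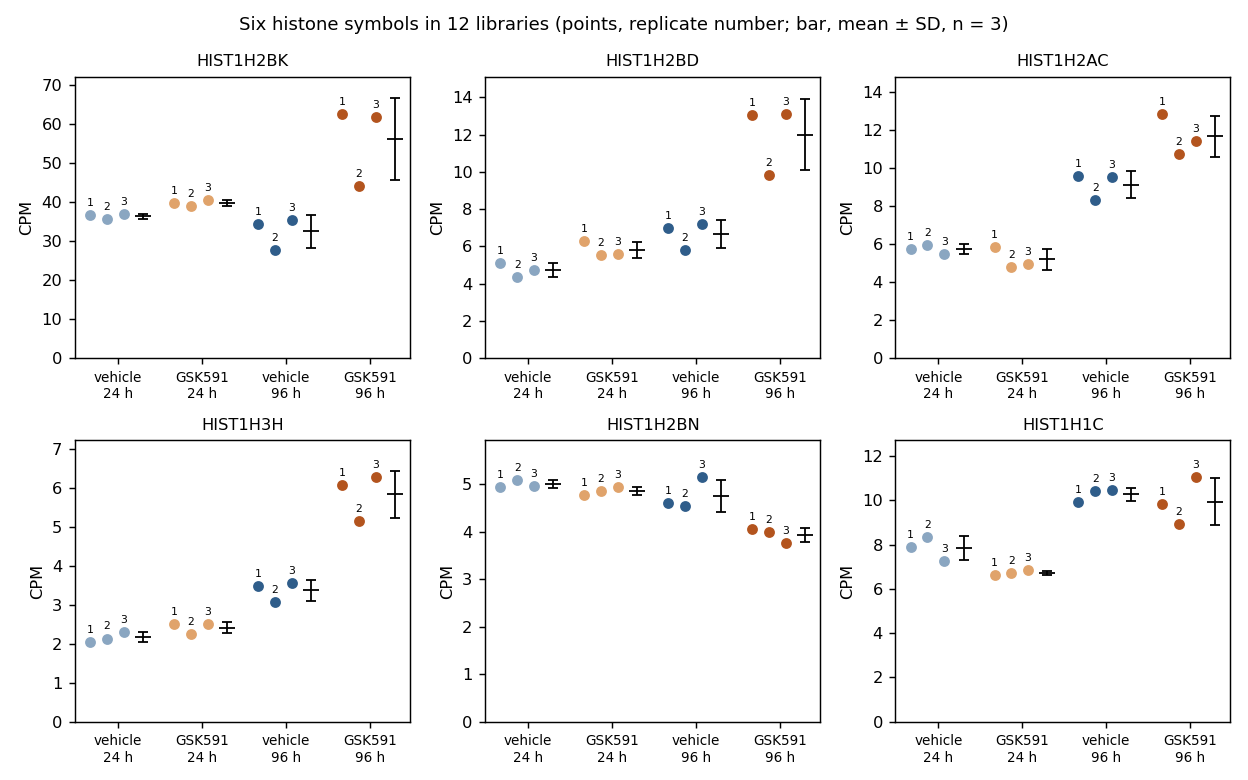
CPM (y axis, linear from 0) of HIST1H2BK, HIST1H2BD, HIST1H2AC, HIST1H3H, HIST1H2BN and HIST1H1C in the 12 libraries; numbers are replicates and bars are mean ± SD of 3. The 96 h GSK591 libraries sit above all other libraries in the first 4 panels, and below them for HIST1H2BN.

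After 24 h the polyadenylated histone transcripts of treated cells were close to those of vehicle. In edgeR's quasi-likelihood test, with Benjamini-Hochberg adjustment over all symbols tested and a threshold of 0.05 for a call, 4 of the 29 histone symbols tested were called (13.8%), against 14.7% of all 13173 symbols tested. Higher were 3 (10.3%, against 7.44% of all symbols) and lower was 1 (3.45%, against 7.29%). With scaling by library size alone the histone calls were 2 higher and 1 lower, and those of all symbols 563 higher and 1220 lower in place of 980 and 960. The median log2 fold change of the 29 was 0.02, and that of all symbols was -0.000821.

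HIST1H2BK (log2 fold change 0.12 ± 0.03 SE, adjusted p = 0.0274) and HIST1H2BD (log2 fold change 0.28 ± 0.08 SE, adjusted p = 0.0296) were 2 of the 3 that rose. The other was HIST3H2A, an H2A gene outside the main cluster, with 0.438, 0.37 and 0.31 CPM in vehicle and 0.56, 0.648 and 0.64 CPM in GSK591 (log2 fold change 0.71 ± 0.23 SE, adjusted p = 0.0409). HIST1H1C, the only described linker histone, fell from 7.91, 8.35 and 7.26 CPM to 6.64, 6.7 and 6.84 CPM (log2 fold change -0.23 ± 0.07 SE, adjusted p = 0.0326). In all 4 the treated libraries lay outside the vehicle range. That was so for 6 of the 29 and for 32.7% of all symbols tested. No H3 or H4 symbol was called. These calls rest on few libraries: leaving out vehicle replicate 2, GSK591 replicate 1 or GSK591 replicate 3 left 0 calls (4, 5 and 4 at an unadjusted p under 0.05), leaving out any of the other 3 left 2, and DESeq2 called 0 (4 at an unadjusted p under 0.05). A fit of all 12 libraries, the one used below for the comparisons across time, also called 0 (3 at an unadjusted p under 0.05). In it the adjusted p of the 4 symbols was 0.303 to 0.759, and 0.212% of all symbols were called at 24 h.

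After 96 h the single symbol with the highest CPM of each of H2B, H2A and H3 (HIST1H2BK, HIST1H2AC and HIST1H3H) was higher in treated cells. Of 31 histone symbols tested, 9 rose (29%, against 20.7% of the 13514 symbols tested) and 0 fell (19.6% of all symbols fell, 15 of the 31 had an unadjusted p under 0.05, and DESeq2 called 10 higher and 0 lower). Calls in either direction made up 40.2% of all symbols tested, more than the histone share. The median log2 fold change of the 31 was 0.39, beside 0.000359 for all symbols. Treated and vehicle libraries did not overlap for 16 of the 31, which was so for 54.7% of all symbols tested. Histone symbols were measured less precisely, with a median SE of 0.22 on the log2 scale against 0.09 for all symbols.

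The largest changes among the described symbols were those of HIST1H2BD (log2 fold change 0.86 ± 0.13 SE, adjusted p = 0.00224), HIST1H2BK (log2 fold change 0.81 ± 0.14 SE, adjusted p = 0.00317) and HIST1H3H (log2 fold change 0.81 ± 0.12 SE, adjusted p = 0.00187), which correspond to 12 ± 1.89 against 6.67 ± 0.745 CPM, 56.2 ± 10.5 against 32.5 ± 4.2 CPM and 5.84 ± 0.607 against 3.38 ± 0.264 CPM (mean ± SD, n = 3). These 3 symbols passed the threshold in every one of the 14 other fits made for this comparison. HIST1H2AC rose less (log2 fold change 0.37 ± 0.10 SE, adjusted p = 0.017), and its adjusted p was 0.0587 without vehicle replicate 2 and 0.0689 without GSK591 replicate 1.

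The other 3 described symbols that rose had lower CPM. HIST2H2BE, an H2B gene of the HIST2 cluster, stood at 3.22, 2.96 and 3.4 CPM in vehicle and 4.34, 4.03 and 4.64 CPM in GSK591 (log2 fold change 0.46 ± 0.11 SE, adjusted p = 0.0121). At 24 h it had stood at 1.81, 2.34 and 2.08 CPM and 2.01, 2.27 and 2.26 CPM, with overlapping groups. At 96 h its groups were apart, and its adjusted p was 0.0527 without vehicle replicate 1.

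HIST1H2BC, an H2B gene, stood at 1.01, 0.673 and 0.935 CPM and 1.39, 1.19 and 1.45 CPM at 96 h (log2 fold change 0.60 ± 0.19 SE, adjusted p = 0.0312), after 0.819, 0.884 and 0.657 CPM and 0.83, 0.793 and 1.0 CPM at 24 h. HIST1H2AI, an H2A gene whose reads cannot be fully told from HIST1H2AJ, stood at 1.6, 1.17 and 1.61 CPM and 2.17, 1.85 and 2.15 CPM at 96 h (log2 fold change 0.49 ± 0.16 SE, adjusted p = 0.0373), after 0.8, 1.03 and 0.657 CPM and 1.04, 0.738 and 1.0 CPM at 24 h. For both, every treated library of 96 h was above every vehicle library. The call of HIST1H2BC was lost without vehicle replicate 2 or 3 or GSK591 replicate 1 or 3 (adjusted p from 0.0701 to 0.0969), and that of HIST1H2AI without any of the 3 vehicle libraries or GSK591 replicate 1 or 3 (0.0665 to 0.112). Below the level of the described symbols, the H4 symbols HIST1H4K (log2 fold change 0.86 ± 0.23 SE, adjusted p = 0.0175) and HIST1H4D (log2 fold change 0.76 ± 0.27 SE, adjusted p = 0.0492) also rose. All 50-base stretches of the HIST1H4K model lay also in HIST1H4J. At 96 h HIST1H4D had 130 (in the deepest library), 9 and 10 counts in vehicle and 24, 24 and 15 in GSK591. It is counted among the 9 that rose. It passed the filter of the 96 h fit only with the GSK591 libraries, so its direction is partly set by that filter. The call of HIST1H4K was lost without vehicle replicate 1 or 3 or GSK591 replicate 1 (adjusted p from 0.0561 to 0.0599), and that of HIST1H4D in 9 of 13 other fits, among them DESeq2, scaling by library size alone and the fits without GSK591 replicate 1 or 2 or any of the 3 vehicle libraries (0.0532 to 0.196).

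**Figure D2:**
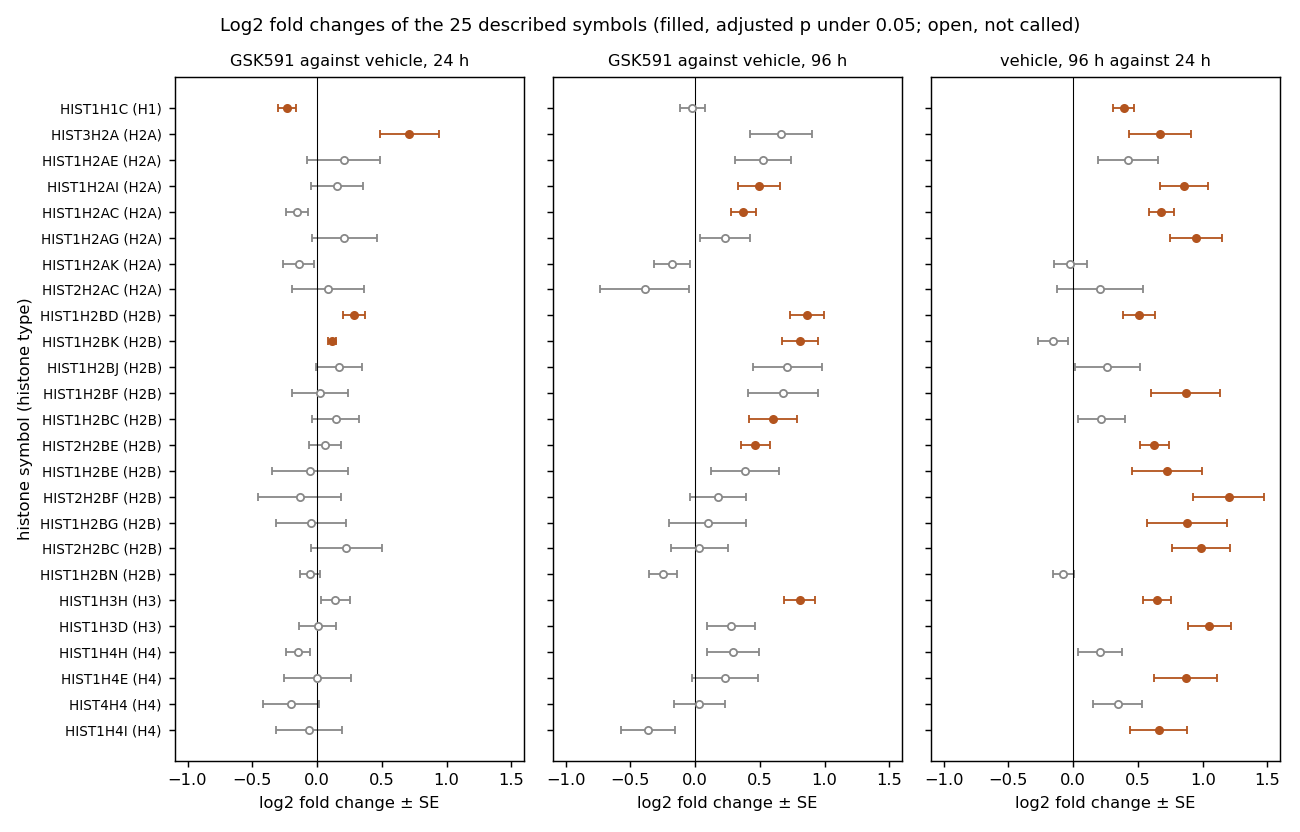
Log2 fold changes ± SE (x axis) of the 25 described symbols (y axis, ordered within type by the 96 h value), for GSK591 against vehicle at 24 h, at 96 h, and for vehicle at 96 h against 24 h; filled points passed an adjusted p of 0.05. The 96 h panel holds 7 filled points, all above 0, from symbols that also reached 0.5 CPM in 3 libraries of 24 h. The vehicle panel holds 16, all above 0. Of these, 6 belong to symbols that reached that level only with the 96 h libraries. The other 10 belong to symbols that reached it in 3 libraries of 24 h, with vehicle and GSK591 both counted.

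By type, the described symbols that rose at 96 h were 4 of 11 for H2B, 2 of 7 for H2A, 1 of 2 for H3, 0 of 4 for H4 and 0 of 1 for H1. With the symbols below the described level, those tested that rose were 4 of 12 for H2B and 2 of 9 for H2A. They were 1 of 2 for H3, 2 of 6 for H4 and 0 of 2 for H1. Of all symbols tested, 20.7% rose. Whether the types differed was not tested. Among the 18 described symbols that were not called, log2 fold changes ran from -0.39 for HIST2H2AC to 0.71 for HIST1H2BJ. HIST1H2BN, an H2B gene, stood at 4.95, 5.1 and 4.96 CPM and 4.77, 4.86 and 4.94 CPM at 24 h and at 4.6, 4.54 and 5.15 CPM and 4.06, 3.99 and 3.76 CPM at 96 h. The treated libraries of 96 h were the 3 lowest of the 12, and the difference was not called (log2 fold change -0.25 ± 0.11 SE, adjusted p = 0.0959). HIST1H2BN passed the threshold as lower in 2 of 13 other fits (adjusted p down to 0.0137). These were the fit of all 12 libraries and that without both 96 h libraries numbered 2. HIST1H1C at 96 h stood at 9.91, 10.4 and 10.5 CPM in vehicle and 9.83, 8.95 and 11.1 CPM in GSK591, with overlapping groups (log2 fold change -0.02 ± 0.09 SE, adjusted p = 0.874). Without GSK591 replicate 2 the value of HIST1H1C was 0.05, of the opposite sign.

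HIST1H4H, the H4 symbol with the highest CPM, stood at 3.85, 3.5 and 3.65 CPM in vehicle and 3.44, 3.3 and 3.3 CPM in GSK591 at 24 h. At 96 h it stood at 4.26, 3.4 and 5.01 CPM and 5.98, 3.67 and 5.71 CPM, and GSK591 replicate 2 lay inside the vehicle range (log2 fold change 0.29 ± 0.20 SE, adjusted p = 0.266). Without that library the value was 0.48 and passed the threshold (adjusted p = 0.0184). Without the 2 libraries of 96 h numbered 2, which were the lowest for the summed histones in both groups, 17 histone symbols were called in place of 9, of which 15 were higher and 2 lower. These were 17 of 33 tested, while 60.5% of all symbols were called in that fit. The number called was 14 of 33 without GSK591 replicate 2 alone (55% of all symbols), 5 of 34 without vehicle replicate 2 (25.6%) or vehicle replicate 3 (28.8%), and 4 of 31 without GSK591 replicate 1 (25.1%). The count for all symbols thus moved in the same direction as that for the histones in each of these fits. The authors' deposited table for 96 h lists 14 histone symbols as higher and 0 as lower at a false discovery rate under 0.05, against 22.8% of its 23368 symbols in either direction. These include all 9 called here, and add HIST1H2BF, HIST1H2BJ, HIST1H3B, HIST1H4C and HIST3H2A. Their deposited table for 24 h lists 1 as higher and 1 as lower, against 7.75% of its symbols.

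Genes that start from a shared promoter region are given side by side, and their differences were not tested. Within 1000 bases, 9 head-to-head pairs of the 73 symbols start, 8 of them an H2A with an H2B gene, and 3 pairs have both members described. At 96 h HIST2H2BE rose by 0.46 on the log2 scale, while its partner HIST2H2AC stood at 0.536, 0.731 and 0.438 CPM in vehicle and 0.21, 0.618 and 0.394 CPM in GSK591 (log2 fold change -0.39 ± 0.34 SE, adjusted p = 0.386). HIST1H2BJ and HIST1H2AG had log2 fold changes of 0.71 and 0.23, and HIST1H2BN and HIST1H2AK -0.25 and -0.18, and none of these 4 was called. HIST1H2BJ passed the threshold without GSK591 replicate 2 (0.95, adjusted p = 0.00304) and with DESeq2 (0.72, adjusted p = 0.0401), HIST2H2AC was at -0.11 without GSK591 replicate 1 and -0.84 without GSK591 replicate 2, and HIST1H2AG was at 0.07 without GSK591 replicate 1. The reads of the last pair cannot be told apart over the HIST1H2AK model. Among symbols with a promoter, TATAAA stood in 8 of 8 that rose at 96 h and in 7 of 17 tested that were not called, a count made after the values were seen and given without a test.

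The 96 h effect was larger than the 24 h effect for 4 histone symbols. In a fit of all 12 libraries, 4 of 32 symbols tested had a higher effect at 96 h (12.5%, against 11.0% of the 13665 symbols tested) and 0 a lower (13.2% of all; 5 of the 32 had an unadjusted p under 0.05, and DESeq2 called 4 higher and 0 lower). In either direction the share of all symbols was 24.1%. They were HIST1H2BK (difference 0.68 ± 0.16 SE, adjusted p = 0.00945), HIST1H3H (0.65 ± 0.16 SE, adjusted p = 0.0101), HIST1H2BD (0.56 ± 0.17 SE, adjusted p = 0.0312) and HIST1H2AC (0.51 ± 0.14 SE, adjusted p = 0.0169), on the log2 scale. HIST1H2BK and HIST1H3H kept their call in all 19 other fits. HIST1H2BD lost it in 7, each without 1 library (vehicle replicate 1 or 3 or GSK591 replicate 2 or 3 of 24 h, vehicle replicate 2 or GSK591 replicate 1 or 3 of 96 h), with adjusted p from 0.0662 to 0.0833. HIST1H2AC lost it without GSK591 replicate 2 of 24 h (adjusted p = 0.0537). The number of symbols called was 2 without GSK591 replicate 2 of 24 h (14.4% of all symbols) and 9 without GSK591 replicate 2 of 96 h (41.5% of all). For HIST3H2A the difference was -0.09 ± 0.33 SE (adjusted p = 0.861), so the larger value at 24 h is not shown to differ from that at 96 h. Its sign turned without vehicle replicate 1 of 96 h (0.23) and without vehicle replicate 3 of 24 h (0.03).

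Vehicle cells themselves had more of many histone transcripts at 96 h than at 24 h. Of 32 symbols tested, 17 rose (53.1%, against 24.2% of all 13665 symbols) and 0 fell (23.5% of all; 17 of the 32 had an unadjusted p under 0.05, and DESeq2 called 15 higher and 0 lower), and calls in either direction made up 47.7% of all symbols. The vehicle groups did not overlap for 15 of the 32, compared with 61.0% of all symbols (30.3% with 96 h higher). Of the 16 described symbols among the 17, 6 had reached 0.5 CPM in 3 libraries only with those of 96 h. The other 10 were of the 18 described symbols that reached it in 3 libraries of 24 h, with vehicle and GSK591 both counted. HIST3H2A and HIST1H4I were among these 10. At 24 h HIST3H2A was below it in vehicle (0.438, 0.37 and 0.31 CPM) and above it in GSK591 (0.56, 0.648 and 0.64 CPM). HIST1H4I reached it at 24 h in vehicle replicate 1 (0.572 CPM) and GSK591 replicates 1 and 3 (0.521 and 0.56 CPM). With scaling by library size alone the histone calls were again 17 higher, and those of all symbols 4167 higher and 2503 lower in place of 3309 and 3207. Unless another comparison is named, the log2 fold changes that follow are of vehicle at 96 h over vehicle at 24 h. The times were deposited as separate tables, so time cannot be told apart from anything else that differed between them. The vehicle libraries also enter the drug comparisons, so values of the comparisons are given side by side and not related to each other.

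The rise covered both H3 symbols, HIST1H3H (log2 fold change 0.65 ± 0.11 SE, adjusted p = 0.000313) and HIST1H3D. HIST1H3D stood at 1.22, 1.28 and 1.31 CPM in vehicle and 1.35, 1.22 and 1.28 CPM in GSK591 at 24 h, and at 2.54, 2.11 and 3.3 CPM and 3.6, 2.61 and 3.24 CPM at 96 h. Its vehicle groups were far apart (log2 fold change 1.05 ± 0.17 SE, adjusted p = 0.000174), whereas vehicle and GSK591 overlapped at either time.

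Among H2B symbols 7 of 11 described rose. Of these 7, HIST1H2BE, HIST1H2BG, HIST2H2BC and HIST2H2BF reached the level of the described symbols only with the 96 h libraries, so their direction is partly set by that threshold. Of the 7 H2B symbols that reached it at 24 h, 3 rose. HIST2H2BF stood at 0.324, 0.37 and 0.347 CPM in vehicle and 0.386, 0.414 and 0.14 CPM in GSK591 at 24 h, and at 0.777, 0.904 and 0.736 CPM and 0.648, 0.898 and 1.11 CPM at 96 h (log2 fold change 1.20 ± 0.28 SE, adjusted p = 0.00272). HIST2H2BC stood at 0.248, 0.35 and 0.31 CPM and 0.386, 0.378 and 0.3 CPM at 24 h, and at 0.586, 0.615 and 0.617 CPM and 0.495, 0.53 and 0.788 CPM at 96 h (log2 fold change 0.99 ± 0.22 SE, adjusted p = 0.00239). In both, every vehicle library of 96 h was above every vehicle library of 24 h, and treated and vehicle libraries overlapped at 96 h. HIST1H2BF stood at 0.61, 0.514 and 0.657 CPM and 0.715, 0.504 and 0.62 CPM at 24 h, and at 1.31, 0.577 and 1.13 CPM and 1.98, 1.34 and 1.76 CPM at 96 h. Vehicle replicate 2 of 96 h lay within the 24 h vehicle range (log2 fold change 0.87 ± 0.27 SE, adjusted p = 0.0155).

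HIST1H2BG stood at 0.362, 0.37 and 0.62 CPM and 0.483, 0.522 and 0.32 CPM at 24 h, and at 0.93, 0.519 and 0.955 CPM and 1.22, 0.604 and 0.824 CPM at 96 h (log2 fold change 0.88 ± 0.31 SE, adjusted p = 0.0294). HIST1H2BE stood at 0.229, 0.308 and 0.383 CPM and 0.328, 0.252 and 0.32 CPM at 24 h, and at 0.566, 0.308 and 0.557 CPM and 0.819, 0.574 and 0.555 CPM at 96 h (log2 fold change 0.72 ± 0.27 SE, adjusted p = 0.0399). In both, vehicle replicate 2 of 96 h again lay within the 24 h range. HIST2H2BE (log2 fold change 0.63 ± 0.11 SE, adjusted p = 0.000468) and HIST1H2BD (log2 fold change 0.51 ± 0.12 SE, adjusted p = 0.00393) rose as well. HIST1H2BK did not follow: its vehicle level was lower in all 3 libraries of 96 h than in any of 24 h, and the difference was not called (log2 fold change -0.16 ± 0.11 SE, adjusted p = 0.274). Its value was -0.07 without vehicle replicate 2 of 96 h, and it passed the threshold without GSK591 replicate 2 of 96 h (-0.15, adjusted p = 0.0478).

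For H2A, HIST1H2AC (log2 fold change 0.68 ± 0.10 SE, adjusted p = 6.28e-05), HIST1H2AI (log2 fold change 0.86 ± 0.19 SE, adjusted p = 0.00181), HIST3H2A (log2 fold change 0.67 ± 0.24 SE, adjusted p = 0.0317) and HIST1H2AG rose in vehicle. HIST3H2A stood at 0.691, 0.404 and 0.537 CPM in vehicle and 0.857, 0.766 and 1.11 CPM in GSK591 at 96 h, where the groups were apart but the drug effect was not called (at 96 h, log2 fold change 0.66 ± 0.24 SE, adjusted p = 0.0514). That drug effect passed the threshold in 6 of 13 other fits, among them those without vehicle replicate 1 (0.96, adjusted p = 0.0377) and without GSK591 replicate 2 (0.72, adjusted p = 0.031). HIST1H2AG stood at 0.419, 0.37 and 0.292 CPM and 0.367, 0.432 and 0.46 CPM at 24 h, and at 0.705, 0.75 and 0.617 CPM and 0.971, 0.707 and 0.734 CPM at 96 h (log2 fold change 0.95 ± 0.20 SE, adjusted p = 0.00151). Its groups were separated by time and overlapped between treatments. HIST1H2AG too reached the level of the described symbols only with the 96 h libraries.

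For H4, HIST1H4E, another symbol that needed the 96 h libraries to reach that level, stood at 0.324, 0.35 and 0.347 CPM and 0.309, 0.396 and 0.32 CPM at 24 h, and at 0.659, 0.692 and 0.457 CPM and 0.952, 0.53 and 0.681 CPM at 96 h (log2 fold change 0.87 ± 0.24 SE, adjusted p = 0.00964). HIST1H4I stood at 0.572, 0.37 and 0.493 CPM and 0.521, 0.324 and 0.56 CPM at 24 h, and at 0.757, 0.731 and 0.796 CPM and 0.686, 0.618 and 0.43 CPM at 96 h (log2 fold change 0.66 ± 0.22 SE, adjusted p = 0.0243). The vehicle groups of both were apart, and at 96 h the GSK591 libraries of HIST1H4I all lay below vehicle without a call (drug effect at 96 h, log2 fold change -0.37 ± 0.21 SE, adjusted p = 0.187). Of the symbols below the described level, HIST1H4D rose (log2 fold change 1.37 ± 0.42 SE, adjusted p = 0.0147). HIST1H4D had only 5, 1 and 7 counts in vehicle at 24 h and did not pass the filter of the 24 h fit. It entered the fit of all 12 libraries only with those of 96 h, so its direction is partly set by that filter. The linker histone HIST1H1C rose by 0.39 on the log2 scale (SE 0.08, adjusted p = 0.00155).

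The number of vehicle calls depended on single libraries. It was 10 without vehicle replicate 1 of 96 h, the deepest library (36.5% of all symbols were then called), and 11 without vehicle replicate 2 of 24 h (38.5%). Of the symbols named, HIST1H2BE, HIST1H2BF, HIST1H2BG, HIST1H4E, HIST1H4I and HIST3H2A lost their call without vehicle replicate 1 of 96 h (adjusted p from 0.068 to 0.363), and HIST1H2BE, HIST1H2BF, HIST1H2BG, HIST1H4I and HIST3H2A without vehicle replicate 2 of 24 h (0.065 to 0.117). HIST1H2BE and HIST1H2BG also lost it without vehicle replicate 1 of 24 h (0.176 and 0.119), HIST1H4I and HIST3H2A without vehicle replicate 3 of 24 h (0.0624 and 0.137), and HIST1H2BE, HIST1H2BG, HIST1H4I and HIST3H2A without vehicle replicate 3 of 96 h (0.0504 to 0.0883). HIST1H2BE lost it as well without any of the 3 GSK591 libraries of 24 h (0.0504 to 0.0539) and with no filter on low counts (0.0506). With DESeq2, HIST1H2BE and HIST3H2A were not called (0.11 and 0.0951), nor after counts of the deepest library were drawn down to a depth like that of the rest (0.126 and 0.144). The size of the change moved too. Without vehicle replicate 1 of 96 h the log2 fold change was 0.34 in place of 0.67 for HIST3H2A and 0.52 in place of 0.87 for HIST1H2BF, and with that library drawn down it was 0.45 for HIST3H2A. HIST1H4D lost its call without vehicle replicate 2 of 24 h or vehicle replicate 1 of 96 h (0.0784 and 0.121) and with the library drawn down (0.0556). HIST1H1C, HIST1H2AC, HIST1H2AG, HIST1H2AI, HIST1H2BD, HIST1H3D, HIST1H3H, HIST2H2BC, HIST2H2BE and HIST2H2BF kept theirs in every other fit in which they were tested.

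**Figure D3:**
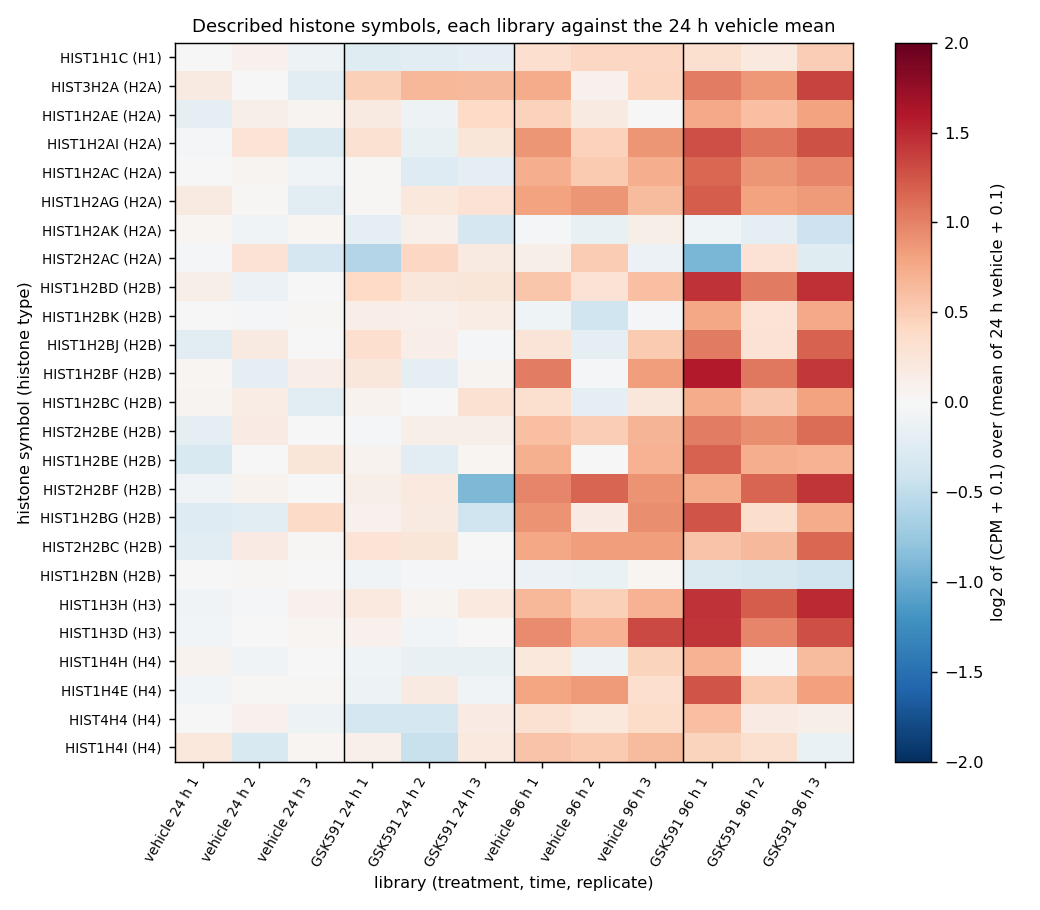
Heat map of the 25 described symbols (rows, by histone type) in the 12 libraries (columns); colour is the log2 ratio of CPM to the mean of the 24 h vehicle libraries, with 0.1 CPM added to both. In vehicle at 24 h the values lie between -0.33 and 0.39, and in GSK591 at 24 h between -0.90 (HIST2H2BF in 1 library) and 0.66 (HIST3H2A, red in all 3). All 3 libraries are above 0 for 17 of 25 rows in vehicle and 21 of 25 in GSK591 at 96 h, with HIST1H2BK below 0 in the former and above 0 in the latter, and HIST1H2BN below 0 in GSK591 at 96 h.

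The summed CPM of the 25 symbols was 79.5, 79.5 and 79 in vehicle and 83.4, 81 and 82.8 in GSK591 at 24 h, and 94.4, 80.9 and 98.1 in vehicle and 141, 108 and 139 in GSK591 at 96 h. Replicate 2 was the lowest of its group in vehicle and in GSK591 at 96 h, and treated libraries lay above all others. Without HIST1H2BK, the sum of the remaining 24 was 42.0 to 43.7 CPM and 41.9 to 43.6 CPM at 24 h, and 53.2 to 62.7 CPM and 64.1 to 78.5 CPM at 96 h, so the treated and vehicle libraries of 96 h stayed apart.

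Genes of S phase and DNA replication, listed as a measure of the cell cycle, went the other way. Their summed level was 5821, 6039 and 5805 CPM in vehicle and 5429, 5782 and 5554 CPM in GSK591 at 24 h. At 96 h it was 4469, 5181 and 4422 CPM in vehicle and 2861, 3538 and 3068 CPM in GSK591. The 96 h vehicle libraries were below those of 24 h, the treated libraries of 96 h were the lowest, and replicate 2, the lowest of its 96 h group for the histones, was the highest for these genes. Of 38 tested, 18 fell (47.4%, against 7.29% of all symbols) and 0 rose at 24 h, and 34 fell (89.5%, against 19.6%) and 1 rose (2.63%, against 20.7%) at 96 h, with a median log2 fold change of -0.66. Between the vehicle groups 21 were lower at 96 h (55.3%, against 23.5% of all symbols) and 0 higher (against 24.2%). POLA2 (log2 fold change -0.90 ± 0.08 SE, adjusted p = 0.000406) and POLA1 (log2 fold change -0.82 ± 0.09 SE, adjusted p = 0.000616), subunits of DNA polymerase alpha, had the smallest p at 96 h. The part of the cell cycle in the histone values was not tested.

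**Figure D4:**
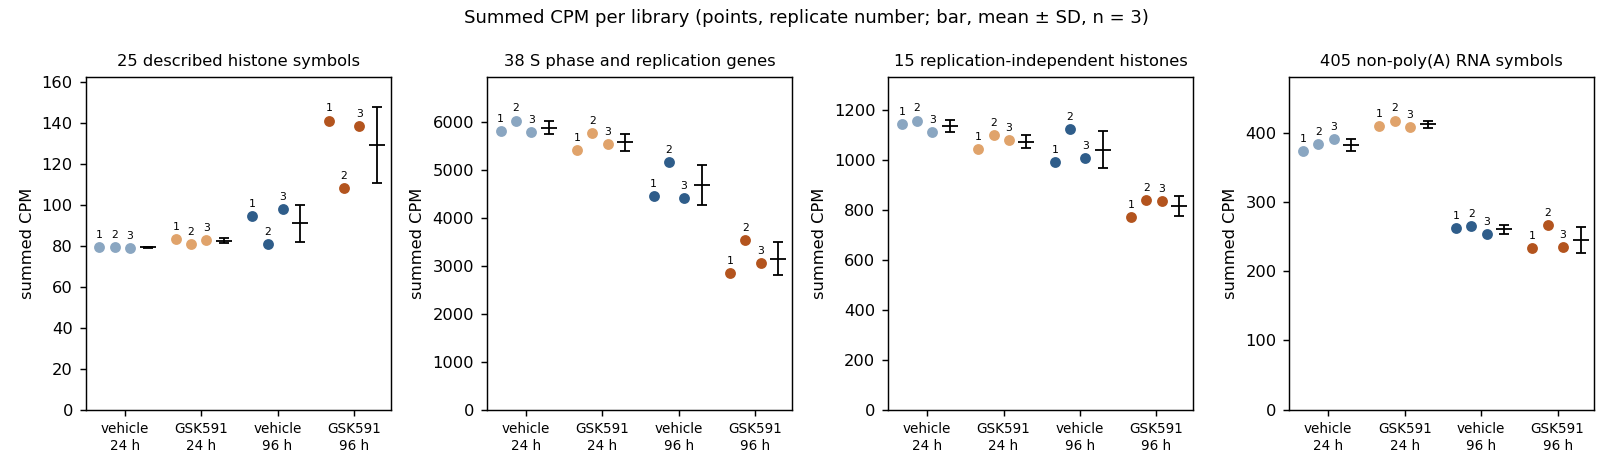
Summed CPM per library (y axes, linear from 0) of the 25 described histone symbols, 38 S phase and replication genes, 15 replication-independent histone genes and 405 symbols of RNAs without a poly(A) tail; numbers are replicates and bars are mean ± SD of 3. At 96 h GSK591 libraries are the highest for the histones (108 to 141 CPM) and the lowest for the S phase genes (2861 to 3538 CPM).

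Genes that act on histone mRNA were counted from the same fits. Of all symbols tested, 7.44% rose and 7.29% fell at 24 h, and 20.7% rose and 19.6% fell at 96 h, and the shares that follow are to be read against these. Of 24 genes of histone mRNA processing and decay, 4 rose (16.7%) and 2 fell (8.33%) at 24 h, and 4 rose (16.7%) and 9 fell (37.5%) at 96 h. SLBP, which binds the stem-loop, averaged 118 ± 7.89 CPM in vehicle and 84.2 ± 4.06 CPM in GSK591 at 96 h (log2 fold change -0.46 ± 0.06 SE, adjusted p = 0.00146), after a fall at 24 h (log2 fold change -0.11 ± 0.03 SE, adjusted p = 0.00764) whose call was lost without GSK591 replicate 1 and in the fit of all 12 libraries (adjusted p up to 0.436). CSTF2, a subunit of the cleavage stimulation factor, averaged 37.8 ± 1.33 CPM and 27.8 ± 1.21 CPM at 96 h (log2 fold change -0.42 ± 0.06 SE, adjusted p = 0.00187). ZCCHC6, a uridylyl transferase that acts in RNA decay and was singled out after its values were seen, rose (log2 fold change 0.51 ± 0.08 SE, adjusted p = 0.00266).

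Of 24 genes tied to histone gene transcription, 1 rose (4.17%) and 3 fell (12.5%) at 24 h, and 3 rose (12.5%) and 12 fell (50%) at 96 h. The smallest p at 96 h belonged to CCNE2, a cyclin E (log2 fold change -1.08 ± 0.14 SE, adjusted p = 0.00138), and CDC25A, a phosphatase that activates CDK2 (log2 fold change -0.84 ± 0.12 SE, adjusted p = 0.00191). The 3 that rose were NPAT, the coactivator of histone genes (log2 fold change 0.37 ± 0.09 SE, adjusted p = 0.0152), HINFP, a factor that binds histone H4 promoters (log2 fold change 0.26 ± 0.07 SE, adjusted p = 0.0222), and POU2AF1, the B-cell coactivator of the octamer factors (log2 fold change 0.15 ± 0.05 SE, adjusted p = 0.0327), all named after their values were seen. NPAT lost its call without vehicle replicate 2 or GSK591 replicate 1 or 3 (adjusted p up to 0.0687), and HINFP and POU2AF1 without any of these or without vehicle replicate 1 or 3 (up to 0.0873 and 0.141).

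Histone genes outside the clusters, many but not all of which make only polyadenylated mRNA through the cell cycle, were taken for comparison. Of 10 tested at 24 h, 4 fell (40.0%) and 0 rose, and of 11 tested at 96 h, 6 fell (54.5%) and 3 rose (27.3%). H2AFZ, the H2A.Z gene (log2 fold change -0.42 ± 0.06 SE, adjusted p = 0.00192), and H2AFX, the H2AX gene (log2 fold change -0.54 ± 0.09 SE, adjusted p = 0.00267), had the smallest p at 96 h. Of those that rose, H1FX, a linker histone gene named after its values were seen, had fallen at 24 h (log2 fold change -0.34 ± 0.07 SE, adjusted p = 0.00371) and was higher at 96 h (log2 fold change 0.47 ± 0.08 SE, adjusted p = 0.00352). Its call at 24 h was lost in the fit of all 12 libraries (adjusted p = 0.134). Summed over the 15 genes listed, the level was 992 to 1125 CPM in vehicle and 772 to 841 CPM in GSK591 at 96 h. Of 27 histone chaperone genes, 3 rose (11.1%) and 2 fell (7.41%) at 24 h, and 3 rose (11.1%) and 14 fell (51.9%) at 96 h. ASF1B, which carries H3 and H4 to new chromatin (log2 fold change -0.54 ± 0.07 SE, adjusted p = 0.00128), and SSRP1, a subunit of FACT (log2 fold change -0.49 ± 0.08 SE, adjusted p = 0.00239), had the smallest p.

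Carry-over of RNA without a poly(A) tail was examined with 405 symbols of such RNAs, most of them small nucleolar RNAs that lie in introns of other genes. Their summed level was 374 to 391 CPM in vehicle and 408 to 418 CPM in GSK591 at 24 h, and 254 to 266 CPM in vehicle and 234 to 267 CPM in GSK591 at 96 h. The 96 h groups overlapped, and both lay below those of 24 h. Of 183 tested at 24 h, 13 rose (7.10%) and 1 fell (0.546%), and of 176 tested at 96 h, 17 rose (9.66%) and 23 fell (13.1%). Of 193 tested between the vehicle groups, 104 were lower (53.9%, against 23.5% of all symbols) and 2 higher (1.04%, against 24.2%) at 96 h. SNORA48 (log2 fold change 1.04 ± 0.14 SE, adjusted p = 0.00148) and SNORD48 (log2 fold change 1.03 ± 0.16 SE, adjusted p = 0.0023), small nucleolar RNAs, had the smallest p at 96 h. Of RNAs with a promoter of their own, RMRP was at 0.154 to 0.577 CPM in vehicle and 0.177 to 1.10 CPM in GSK591 at 96 h, with means of 0.314 and 0.606 CPM, and RPPH1, the RNA of ribonuclease P, at 0.154 to 0.358 CPM and 0.221 to 1.07 CPM, with means of 0.238 and 0.620 CPM. The groups of both overlapped, and both means were higher in GSK591, as the histone sum was. At 96 h the means of TERC (0.0322 CPM in vehicle and 0.0299 CPM in GSK591) and RNY5 (0.0140 and 0.00981 CPM) were lower in GSK591. Both were at very low levels, and RNY4 was at 0 in every group. At 24 h the means were 0.273 and 0.312 CPM for RMRP and 0.219 and 0.241 CPM for RPPH1. Reads of a small nucleolar RNA and of the intron that holds it cannot be told apart here, and the part of poly(A) selection in the histone values was not tested.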

How the data were processed

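Poly(A)-selected RNA of SUDHL6 cells was sequenced in 12 libraries, 3 for each of 4 groups. The authors deposited, for each time, a table of raw counts per gene symbol and a table of log2 fold changes with average log2 CPM, p-values and FDR, per the file headers. The submitters' processing notes name STAR, HTSeq, edgeR and hg19 (GRCh37). Their versions and the annotation, strand and multiple-match settings do not appear in the sources used here, so overlapping, antisense and near-identical genes cannot be separated. All columns matched a sample by name.

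Total counts were 48.5 to 64.4 M (M, mega) in 11 libraries and 547.9 M in vehicle replicate 1 at 96 h. A chi-square comparison of replicate counts gave 2.26 to 41.9 per degree of freedom over 12 pairs, more than sampling noise, so no library was taken as a copy of another. The pairs with a 96 h library numbered 2 gave 17.5 and 25.7 in vehicle and 33.1 and 41.9 in GSK591. The remaining pairs gave 2.26 to 9.56, so the 96 h libraries numbered 2 stood apart from their groups. All libraries were kept. The counts were filtered with filterByExpr, scaled with TMM and tested with edgeR 4.0.16 (quasi-likelihood test, two-sided, R 4.3.3), with Benjamini-Hochberg adjustment over all symbols tested and a threshold of 0.05. Each time was fitted on its own 6 libraries. The difference between the times and the vehicle comparison came from a fit of all 12 with 4 group means. The SE of a log2 fold change is its size divided by the root of the F statistic. CPM are TMM-scaled. The fits were tested on simulated data with known changes.

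Other fits used DESeq2 1.42.0, library size alone, no filter, a filter of 5 CPM, the replicate block, the deepest library thinned, all 12 libraries together, and each library left out. Values in every library are printed for described symbols called in any comparison and for the highest-CPM symbol of each type, and the 2 genes with the smallest p at 96 h are named from each related list. The symbols, lists and comparisons were chosen with earlier results of these data known. Promoter letters come from RefSeq (GRCh38.p14) and gene models from GENCODE release 29, builds other than that of the counts, so no coordinates of the counted genes are given.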

Additional observations from a re-analysis of the deposited data

Results flagged for a closer look

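The effect of GSK591 differed between 96 h and 24 h for 4 of 32 histone symbols, by the test of the difference itself in edgeR's fit of all 12 libraries. All 4 had a higher effect at 96 h (12.5%, against 11.0% of all symbols tested). In either direction 24.1% of all symbols were called. The 96 h effect exceeded the 24 h effect by 0.68 for HIST1H2BK, 0.65 for HIST1H3H, 0.56 for HIST1H2BD and 0.51 for HIST1H2AC on the log2 scale. Of the 4, HIST1H2BK alone had a lower vehicle level at 96 h than at 24 h (log2 fold change -0.16 ± 0.11 SE, adjusted p = 0.274), and HIST1H2AC alone had a negative drug effect at 24 h (-0.15 ± 0.09 SE, adjusted p = 0.249).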

How the results depend on the processing

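No called log2 fold change of a named histone symbol changed sign under any fit tried. Of those not called, 2 did: HIST1H1C for GSK591 at 96 h was 0.0741 without both libraries numbered 2 and -0.0997 to 0.0463 with 1 library left out, with 0.0463 without GSK591 replicate 2. For HIST3H2A the difference between the times was 0.12 with the deepest library thinned and -0.26 to 0.23 with 1 library left out, above 0 without vehicle replicate 3 of 24 h (0.03) or vehicle replicate 1 of 96 h (0.23). At 24 h, 4 calls became 0 with DESeq2 (4 at an unadjusted p under 0.05, 11% of all symbols called). They became 0 in a fit of all 12 libraries (3 unadjusted, 0.212% of all symbols called), and 0 to 2 with 1 library left out (7.37% to 16.6% of all). At 96 h, 9 calls became 4 with a filter of 5 CPM, which left 6 histone symbols to test (44.9% of all symbols called). They became 14 in a fit of all 12 libraries (13 higher, 1 lower, 54.1% of all symbols) and 17 without both libraries numbered 2 (60.5% of all). With 1 library left out they became 4 to 14 (25.1% to 55% of all). For the difference between the times, 4 became 9 without both 96 h libraries numbered 2 (43.8% of all symbols called), and 2 to 9 with 1 library left out (14.4% to 41.5% of all). For vehicle, 17 became 4 with the filter of 5 CPM (6 tested, 54.3% of all symbols called), and 10 to 18 with 1 library left out (36.5% to 58.2% of all). A threshold of 1 CPM left 14 symbols described in place of 25. Except for the filter, the cause of these changes was not tested.

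With the replicate number as a block, the calls were 4 at 24 h, 12 at 96 h, 5 for the difference and 16 for vehicle (15 higher, 1 lower). Of all symbols, 21.3%, 46.6%, 31.6% and 51.6% were called in these fits, more than the 14.7%, 40.2%, 24.1% and 47.7% without the block. Among the named symbols, the block ended the vehicle calls of HIST1H2BE (adjusted p = 0.0708) and HIST3H2A (0.0533) and added HIST1H2BK as lower (0.01), and at 96 h it added HIST1H2BJ (0.00561) and HIST3H2A (0.0272). Same-numbered libraries deviated together with correlations of 0.02, 0.13 and 0.03 at 24 h and 0.29, 0.25 and 0.01 at 96 h. Libraries with different numbers had correlations of -0.08 to 0.04 at 24 h and -0.34 to 0.22 at 96 h. At 96 h vehicle replicate 3 correlated best with GSK591 replicate 1 (0.22). The main fits did not use the numbers to pair the libraries, and whether they mark pairs was not settled. Depth limits the low symbols: 11 of the 25 described stayed below 1 CPM in at least 10 of 12 libraries.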
